A study of Mus musculus with 18 samples.

Results

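The genes described here carry bile acids across the intestinal epithelium or sense them there. The 8 members were chosen by name: Slc10a2, Fabp6, Slc51a and Slc51b for transport, and Nr1h4, Nr0b2, Fgf15 and Gpbar1 for sensing. All 8 were found among the 27131 rows of the deposited table. Of these, 6 matched by current symbol and 2, Slc51a and Slc51b, by the older symbols Osta and Ostb, which RefSeq lists as synonyms. RNA came from colon tissue of untreated C57BL/6 mice. The 9 WT libraries are labelled Hif2a +/+, and the 9 HIF2 libraries are labelled Hif2a LFL (LSL in the series' design text) and come from mice described as overexpressing HIF-2α, a hypoxia-inducible transcription factor encoded by Epas1, in the colon. The promoter or recombinase that drives the allele, and the age and sex of the mice, are not stated in the labels. Whether each library is a separate mouse is not stated either, so p-values set differences against the spread between libraries, which may be partly technical.

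Bile acids are made from cholesterol in the liver, secreted into the gut and largely taken back up. In enterocytes, the apical sodium-dependent transporter ASBT (Slc10a2) brings them in from the lumen, the ileal bile acid binding protein (Fabp6) binds them in the cytosol, and the heterodimer of OSTα (Slc51a) and OSTβ (Slc51b) exports them to the blood. Inside the cell they activate FXR (Nr1h4), a nuclear receptor that works with RXR and induces Fabp6, both OST subunits, the corepressor SHP (Nr0b2) and the hormone gene Fgf15. Uptake is greatest in the ileum, while the colon absorbs what escapes it. TGR5 (Gpbar1) is a bile acid receptor of the cell surface, found on enteroendocrine cells, macrophages and other cells.

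Fabp6 and Slc51b fell in HIF2 colon, whereas Nr1h4 and Slc10a2 did not pass the test and Slc51a was higher without passing it. Values are FPKM, fragments scaled by transcript length and library size, and differences are HIF2 minus WT on the log2(FPKM + 1) scale, which understates changes of low genes. The test was limma, 2-sided, over the 13976 genes with a mean of at least 1 FPKM, with Benjamini-Hochberg adjustment over all of them and a threshold of 0.05. At that threshold 11.1% of all tested genes were lower in HIF2, 11.0% were higher and 22.1% were called in either direction. Of the 8 members, 5 passed the filter, and of those 2 fell and 0 rose (limma, and likewise in an exact rank test). At an unadjusted limma p under 0.05, 1 member was higher, Slc51a. Fgf15, Nr0b2 and Gpbar1 did not pass the filter. As bulk tissue was measured, fewer cells of a type and less RNA per cell cannot be told apart.

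**Figure D1:**
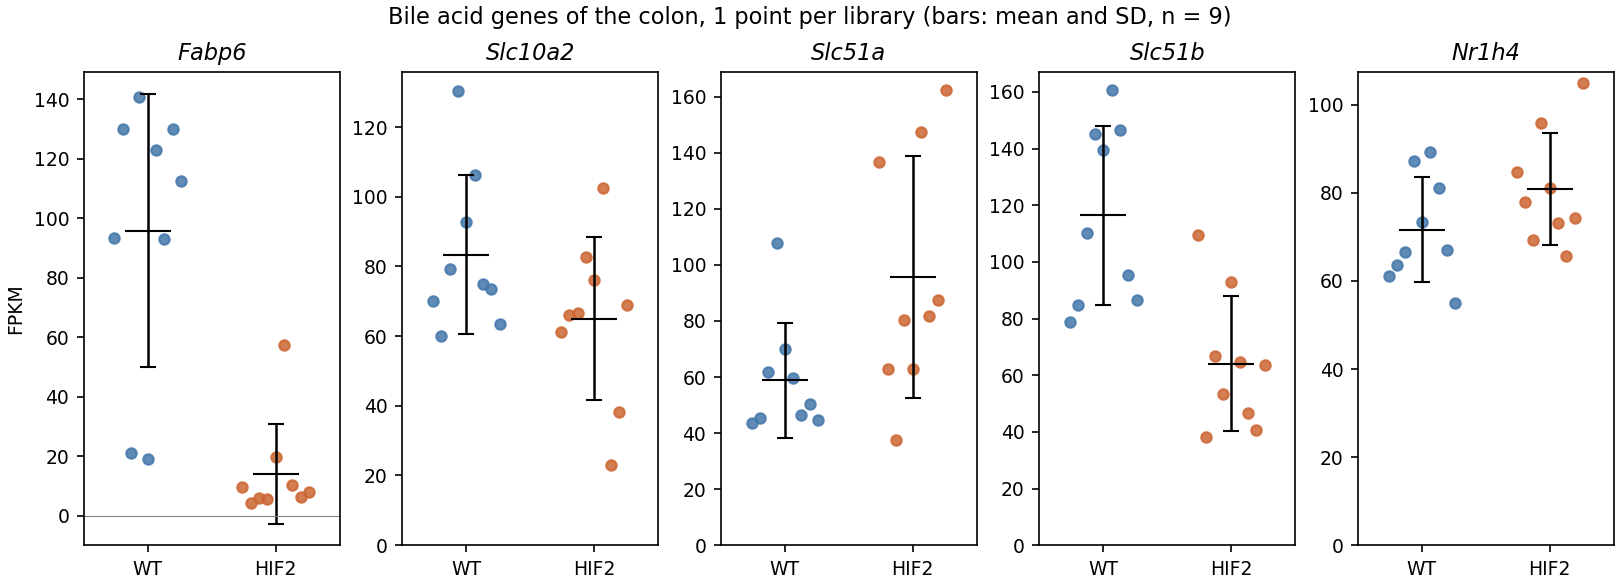
FPKM of the 5 members above the filter in each of the 9 WT (blue) and 9 HIF2 (orange) libraries, with black bars for the mean and SD. All 9 HIF2 libraries lie below the WT median for Fabp6 and for Slc51b, and the groups overlap for all 5 genes.

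In WT colon the 5 genes were well expressed and lay close together. In order of mean level they were Slc51b at 116 FPKM, Fabp6 at 95.9, Slc10a2 at 83.4, Nr1h4 at 71.6 and Slc51a at 58.8, and the ranges of neighbours in this order overlapped. Slc51b stood at percentile 94.8 and Slc51a at percentile 89.6 of the tested genes. In HIF2 the order of means was Slc51a at 95.5 FPKM, Nr1h4 at 80.8, Slc10a2 at 65.0, Slc51b at 64.0 and Fabp6 at 14.2, again with overlapping ranges of neighbours. Fabp6 thereby moved from percentile 93.6 to percentile 62.6.

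Before the members, the libraries themselves need a description. Epas1 differed by 0.24 (SE 0.14, limma adjusted p = 0.246), so the labelled overexpression was not called at this row, and whether the row covers the allele's transcript is not stated. Slc11a2, an iron importer that answers to HIF-2α, ranged from 12.8 to 19.0 FPKM in WT and reached 2101 in HIF2, but HIF2 replicates 2 and 4, at 16.5 and 18.2, lay inside the WT range. Car1, a colonic carbonic anhydrase, averaged 6884 FPKM in WT and 4715 in HIF2. Gata4, a factor of proximal small intestine, was at no more than 0.829 FPKM in any library. Markers of small intestinal enterocytes were present too, at 492 to 876 FPKM in sum in WT and 227 to 361 in HIF2. The sum is uneven: Fabp2 had the highest mean, at 266 FPKM in WT and 118 in HIF2. Treh had the lowest WT mean, at 1.71 FPKM. Whether the libraries hold RNA of distal small intestine was not tested. Smooth muscle markers rose in 9 of 10, and their summed level split the libraries: it was 1471 to 3587 FPKM in HIF2 replicates 0 to 5 and 62.5 to 181 in HIF2 replicates 6 to 8, against 1169 in WT replicate 3 and 22.8 to 185 in the other 8 WT libraries. Values for HIF2 replicates 6 to 8 against WT without replicate 3, a subset defined from these data and called below the libraries low in smooth muscle RNA, are given where they bear on a call. Those 3 HIF2 libraries also stood apart in Slc11a2, at 1525 to 2101 FPKM against at most 469 in the other HIF2 libraries. Ddx3y, a Y-linked gene, was under 1 FPKM in 4 libraries of each group, which included all 3 of HIF2 replicates 6 to 8 and 4 of the 8 WT libraries set against them. Which of these moves with a value from this subset cannot be told apart. Macrophage markers rose in 10 of 12 (39.0 to 112 against 81.6 to 250 FPKM in sum). General epithelial markers fell in 3 of 10 (7066 to 10539 against 7462 to 11869 FPKM in sum). No marker of these lists was at 0 in every library. In WT replicate 2 the pancreatic genes Ctrb1 and Pnlip stood at 237 and 98.4 FPKM, against at most 22.8 and 9.48 in the other libraries.

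Fabp6 (chromosome 11, 43596049 to 43601540 in the GENCODE M21 annotation of GRCm38, minus strand, 4 exons, no overlapping gene), the cytosolic carrier, had the greatest change of the members that passed the filter. Its level in WT had a lowest value of 18.9, a median of 113 and a highest of 141 FPKM, and in HIF2 a lowest of 4.44, a median of 7.88 and a highest of 57.3. In 7 of the 9 HIF2 libraries it was below the lowest WT library, and the other two, replicates 4 and 5 at 19.7 and 57.3 FPKM, fell among the WT values. Within WT, replicates 2 and 4 were low, at 21.0 and 18.9 FPKM, and the other 7 lay at 93.1 or above. The WT mean of 95.9 ± 46.0 FPKM was 6.78-fold above the HIF2 mean of 14.2 ± 16.8 (SD, n = 9 each). The difference was -2.86 (SE 0.48, 95% interval -3.86 to -1.86, limma adjusted p = 0.000449, exact permutation p = 0.000329, 2-sided). The Fabp6 difference was as large among libraries low in smooth muscle RNA, at -3.03 (limma adjusted p = 0.00647).

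The Fabp6 promoter is shown because this gene is a textbook FXR target and its row changed most. The RefSeq window (GRCm38.p6) runs from 250 bases before the annotated start to 50 after it. It was searched on both strands for the FXR-type inverted repeat with a 1-base spacer, AGGTCANTGACCT, allowing up to 2 mismatches at its 12 fixed positions, and for the HIF core letters ACGTG and GCGTG, with overlapping core matches merged. Capitals mark the matches.
Fabp6 promoter window, chr11:43601513-43601812, minus strand: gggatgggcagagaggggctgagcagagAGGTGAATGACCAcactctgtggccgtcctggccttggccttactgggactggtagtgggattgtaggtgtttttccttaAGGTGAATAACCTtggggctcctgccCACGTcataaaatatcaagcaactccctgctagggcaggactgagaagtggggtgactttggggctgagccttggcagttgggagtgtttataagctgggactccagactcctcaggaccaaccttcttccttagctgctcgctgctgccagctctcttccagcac
This window held 2 inverted repeat matches, AGGTGAATGACCA from 222 to 210 bases before the start and AGGTGAATAACCT from 142 to 130 bases before it. Counted from the 5′ end of the motif, with the motif's base first, the former differed at C5G and T13A and the latter at C5G and G9A. At least 1 such match was present in 1.14% of the 32851 promoter windows of this length, and 2 or more in 0.0122%. The window also held 1 HIF core site, CACGT, 116 bases before the start, and 43.8% of windows held at least 1. These are matches of letters, and no binding was measured.

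After subtracting each group's mean, the tested genes whose log2 values were most like those of Fabp6 over the 18 libraries were Grlf1 (r = 0.742), Usp28 (r = 0.724) and Anpep (r = 0.715), the brush border aminopeptidase N, leaving out predicted genes and small RNAs. Anpep was also low in WT replicates 2 and 4, at 7.01 and 8.61 FPKM, against 24.0 to 64.9 in the other WT libraries. In HIF2 the highest library differed between Fabp6 and Anpep. Replicate 5, highest for Fabp6 at 57.3 FPKM, had Anpep at 4.89, exceeded only by replicate 0. Replicate 0, highest for Anpep at 9.69, had Fabp6 at 9.60, exceeded by replicates 4, 5 and 6. Grlf1, Usp28 and Anpep were picked as the highest of 13976, so their r is no evidence of a relation. In HIF2 Anpep ranged from 2.31 to 9.69 FPKM, and its difference was -2.60 (SE 0.36, limma adjusted p = 0.000112). Usp28 differed by -0.35 (limma adjusted p = 0.0099) and did not pass with upper quartile scaling (-0.26, limma adjusted p = 0.0685) or, at a larger difference over fewer libraries, among those low in smooth muscle RNA (-0.40, limma adjusted p = 0.0687). Grlf1 showed no difference in mean, at 17.7 and 17.6 FPKM (limma adjusted p = 0.999). Beside Fabp6, small intestinal enterocyte markers fell in 10 of 17 with 0 higher (median -1.01), and their summed level ran from 492 to 876 FPKM in WT and from 227 to 361 in HIF2, with none at 0 in every library. Their part in the Fabp6 difference was not tested.

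**Figure D2:**
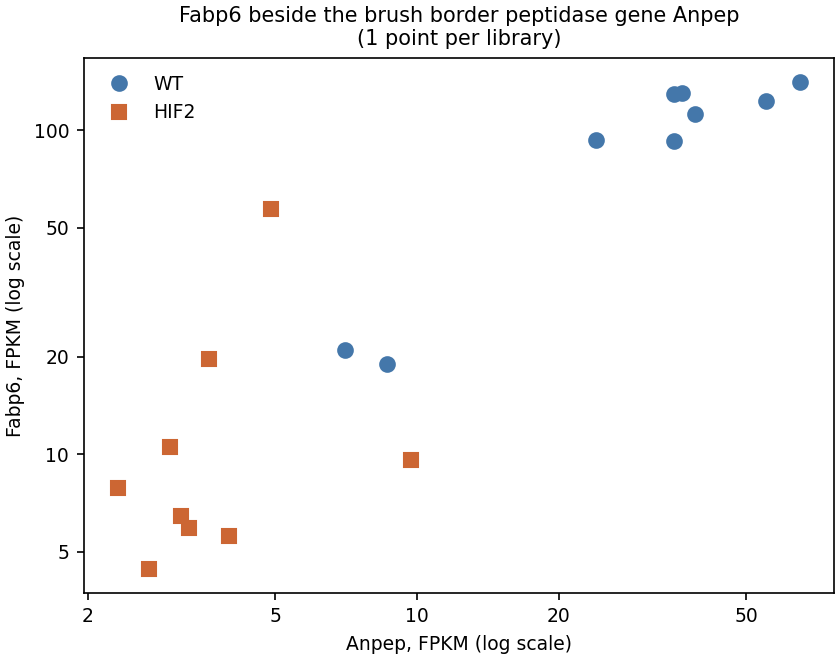
Fabp6 against Anpep, both in FPKM on log scales, 1 point per library (blue circles WT, orange squares HIF2). The WT libraries at 21.0 and 18.9 FPKM of Fabp6 are also the lowest WT libraries for Anpep, at 7.01 and 8.61 FPKM.

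Slc10a2 (chromosome 8, 5083219 to 5105351, minus strand, 6 exons), the apical importer, had WT values of 60.1 at the lowest, 75.1 at the median and 130 FPKM at the highest. In HIF2 they were 22.9, 66.7 and 102 FPKM. Only HIF2 replicates 6 and 7, at 22.9 and 38.2 FPKM, lay below the WT range, and the other 7 lay inside it. The difference was -0.42 (SE 0.23, 95% interval -0.90 to 0.06, limma adjusted p = 0.212, exact permutation p = 0.103). It passed once marker level was a covariate, whether smooth muscle (-0.93, limma adjusted p = 0.0169) or epithelium (-0.60, limma adjusted p = 0.0269), and among libraries low in smooth muscle RNA (-0.94, limma adjusted p = 0.0323). Leaving out HIF2 replicates 6 to 8 instead gave -0.12 (limma adjusted p = 0.654). The genes most like Slc10a2 across libraries were Prss23 (r = 0.873), Cyp2d22 (r = 0.820) and Cyp4b1 (r = 0.801).

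Of the 2 subunits of the basolateral exporter, Slc51b fell and Slc51a had a difference of the opposite sign that missed the threshold. Slc51b (chromosome 9, 65412714 to 65422955, minus strand, 4 exons), which encodes OSTβ, had WT values of 78.9 at the lowest, 110 at the median and 161 FPKM at the highest, and HIF2 values of 38.1, 63.5 and 110 FPKM. Of the HIF2 libraries, 7 lay below the WT range, while replicates 0 and 4, at 110 and 92.8 FPKM, lay inside it. The HIF2 mean, 64.0 ± 23.8 FPKM, was 55.0% of the WT mean, 116 ± 31.6 (SD, n = 9 each). Slc51b fell by 0.89 (SE 0.20, 95% interval -1.31 to -0.46, limma adjusted p = 0.00412, exact permutation p = 0.00128).

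Slc51a (chromosome 16, 32474504 to 32487879, minus strand, up to 9 exons), which encodes OSTα, had WT values of 43.4 at the lowest, 50.4 at the median and 108 FPKM at the highest, and HIF2 values of 37.4, 81.8 and 163 FPKM. In HIF2, 8 of 9 libraries lay above the WT median, 3 above the highest WT library and 1, replicate 2, below the lowest. The difference was 0.62 (SE 0.25, 95% interval 0.09 to 1.14, exact permutation p = 0.0355), and it missed the threshold over all genes (limma adjusted p = 0.0853). The call depended on single libraries: the difference passed without WT replicate 3 (0.73, limma adjusted p = 0.0354) and without HIF2 replicate 2 (0.76, limma adjusted p = 0.0192). It also passed among libraries low in smooth muscle RNA (1.0, limma adjusted p = 0.00706), and with upper quartile scaling (0.73, limma adjusted p = 0.0390), which shifts the median of all genes by 0.10. On the opposite strand, Slc51a overlaps Pcyt1a and Slc51b overlaps Rasl12, and the library kit does not mark strand. Pcyt1a differed by 0.24 (limma adjusted p = 0.0875) and Rasl12 by 0.25 (limma adjusted p = 0.504).

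Because FPKM is scaled per length, the subunits can be set side by side within a library. The ratio of Slc51a to Slc51b, a quantity chosen after its values were seen and given without a test, ran from 0.318 to 0.743 in WT with a median of 0.529. In HIF2 it ran from 0.560 to 2.56 with a median of 1.65. Slc51b exceeded Slc51a in all 9 WT libraries, and Slc51a exceeded Slc51b in 7 of 9 HIF2 libraries. The other two were HIF2 replicates 2 and 4, at 0.560 and 0.678, which are also the libraries whose Slc11a2 lay inside the WT range. In those 2 libraries Fabp6 was 5.92 and 19.7 FPKM, so replicate 2 was below the WT range for Fabp6 while its subunit ratio was not outside the WT range.

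**Figure D3:**
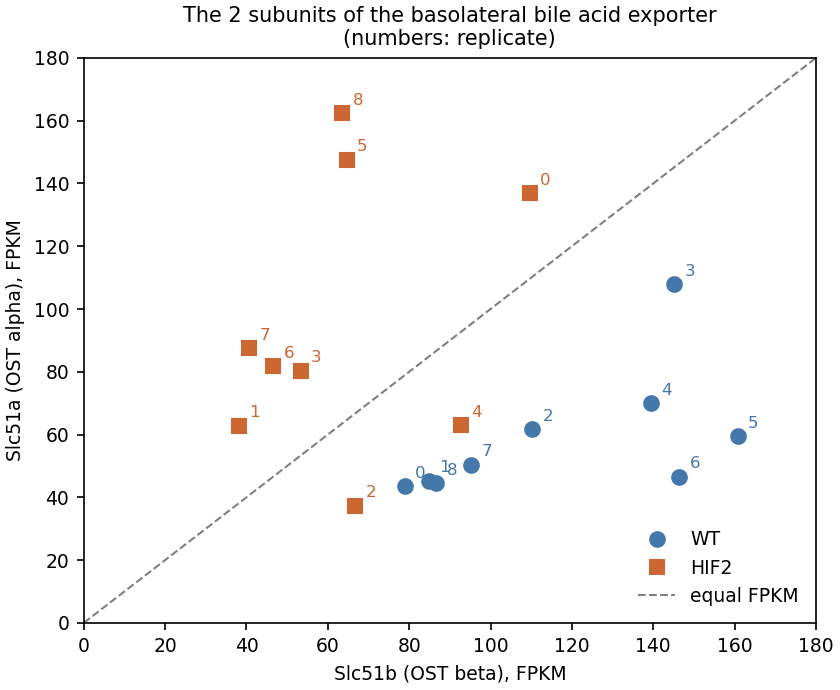
Slc51a against Slc51b in FPKM, 1 point per library numbered by replicate (blue circles WT, orange squares HIF2), with a dashed line where both are equal. All 9 WT libraries lie below the line, and 7 of 9 HIF2 libraries lie above it, with replicates 2 and 4 below.

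The promoter windows of the subunits are shown to set beside each other genes whose products form 1 transporter and whose differences had opposite signs. They come from RefSeq (GRCm38.p6), with the motifs and the window as for Fabp6 and capitals for matches.
Slc51a promoter window, chr16:32487830-32488129, minus strand: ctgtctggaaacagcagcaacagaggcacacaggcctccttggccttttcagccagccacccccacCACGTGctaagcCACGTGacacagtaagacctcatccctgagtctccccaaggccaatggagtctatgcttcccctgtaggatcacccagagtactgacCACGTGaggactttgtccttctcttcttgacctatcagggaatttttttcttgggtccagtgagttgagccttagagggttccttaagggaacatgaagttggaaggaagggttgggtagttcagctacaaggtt
Slc51b promoter window, chr9:65422724-65423023, minus strand: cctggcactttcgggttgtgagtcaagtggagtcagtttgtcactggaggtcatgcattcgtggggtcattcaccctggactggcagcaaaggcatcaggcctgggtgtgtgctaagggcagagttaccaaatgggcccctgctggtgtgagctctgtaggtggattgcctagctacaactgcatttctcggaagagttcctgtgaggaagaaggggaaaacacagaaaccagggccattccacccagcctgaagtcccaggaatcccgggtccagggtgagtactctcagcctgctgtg
The Slc51a window held 3 HIF core sites, each the palindrome CACGTG, 184, 172 and 85 bases before the start, and 6.55% of all windows held at least 3 sites. The Slc51b window held 0. Among the other members, the Slc10a2 window also held 3 sites, that of Nr0b2 held 2 and that of Fabp6 held 1. Those of Nr1h4 and Gpbar1 held 0. Whether these counts relate to the differences was not tested. Neither subunit window held an inverted repeat match with up to 2 mismatches, which says only that these letters are not in the window. The annotated start of Slc51b in RefSeq, at 65422773, lies inside the GENCODE gene, which reaches 65422955. That of Nr1h4, at 89506658, lies farther inside its gene, which reaches 89533585. The Nr1h4 count therefore holds for that start only.

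Nr1h4, the gene for FXR itself (chromosome 10, 89454234 to 89533585, minus strand, up to 10 exons), was the steadiest member. Its WT values were 55.0 at the lowest, 66.9 at the median and 89.2 FPKM at the highest, and its HIF2 values 65.7, 78.0 and 105 FPKM. The groups overlapped, with 7 of 9 HIF2 libraries inside the WT range and 2 above it. The coefficient of variation was 16.7% in WT and 15.7% in HIF2, against 48.0% and 119% for Fabp6. The difference was 0.18 (SE 0.11, 95% interval -0.05 to 0.40, limma adjusted p = 0.268, exact permutation p = 0.12). The lower bound of its interval lay above the differences of Slc51b and Fabp6. The genes most like Nr1h4 across libraries were Prkg2 (r = 0.745), Fam110c (r = 0.701) and Plb1 (r = 0.697).

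Across libraries, the genes most like Slc51a were Pgs1 (r = 0.864), Vps53 (r = 0.861) and Hsd17b13 (r = 0.854). Those most like Slc51b were Sav1 (r = 0.795), Ildr1 (r = 0.792) and Gda (r = 0.764). Hsd17b13, a lipid droplet enzyme gene, rose by 1.26 (limma adjusted p = 0.0127), a call lost without HIF2 replicates 6 to 8 (0.95, limma adjusted p = 0.0654). Gda, guanine deaminase, fell by 1.01 (limma adjusted p = 0.0105), a call lost in the same way (-0.70, limma adjusted p = 0.0572). These correlations are over 18 libraries after subtracting group means. The libraries differed in tissue composition within each group, and the part of composition in these correlations was not tested.

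Among WT libraries several members varied together. Of the 10 pairs of the 5 genes within WT, 4 had an adjusted exact permutation p under 0.05 for Pearson's r, over the 20 relations computed in both groups. Slc51b and Nr1h4 had r = 0.923 (exact permutation p = 0.000477, adjusted 0.00954) and rho = 0.917 (exact permutation p = 0.00131, adjusted 0.0262). Slc10a2 and Slc51a had r = 0.905 (exact permutation p = 0.00147, adjusted 0.0147) and rho = 0.867 (exact permutation p = 0.00451, adjusted 0.0405). Without the 2 libraries farthest from the median of the gene named first, r was 0.898 and 0.869. Slc10a2 also followed Nr1h4 (r = 0.835, exact permutation p = 0.00465, adjusted 0.031, rho = 0.850, exact permutation p = 0.00607, adjusted 0.0405), with r = 0.630 without the farthest 2. With Slc51b it had r = 0.800 (exact permutation p = 0.0074, adjusted 0.037) and r = 0.756 without the farthest 2, while its rho of 0.817 had an adjusted exact permutation p of 0.0539. Fabp6 had r between -0.185 and 0.074 with the other members in WT, and rho between -0.083 and 0.133. Without the 2 libraries farthest from its median, r was higher with each. It was 0.613 with Slc51a, 0.422 with Slc10a2, 0.241 with Nr1h4 and 0.154 with Slc51b. These values over fewer libraries were not tested. Within HIF2, r lay between -0.211 and 0.471, and 0 of 10 pairs had an adjusted exact permutation p under 0.05. The difference between the groups in these correlations was not tested, and the labels name no batch. Library composition varied within both groups, as given above, and its part in these correlations was not tested.

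Fgf15, Nr0b2 and Gpbar1 were at the edge of detection. Fgf15 (chromosome 7, 144896531 to 144900953, plus strand, overlapped by the antisense genes Gm26793 and Gm39119), the hormone that signals to the liver, was listed at 0 in 5 of 9 WT and 8 of 9 HIF2 libraries. Its WT values above 0 were 0.136, 0.153, 0.370 and 0.330 FPKM in replicates 0, 1, 5 and 8, and the HIF2 value was 0.607 FPKM in replicate 0. Nr0b2 (chromosome 4, 133553376 to 133556536, plus strand), the FXR-induced corepressor, was above 0 in 1 library, WT replicate 5, at 0.324 FPKM. Both genes were thus near 0 in colon RNA that carried Nr1h4 at 55.0 FPKM or more. Differences were -0.06 for Fgf15 (exact permutation p = 0.647) and -0.05 for Nr0b2 (exact permutation p = 1), and a change in either was not detectable at these levels.

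Gpbar1 (chromosome 1, 74278550 to 74279624, plus strand, 1 exon), the surface receptor, was listed at 0 in 5 of 9 WT and 2 of 9 HIF2 libraries. WT values above 0 lay between 0.301 and 0.380 FPKM, and HIF2 values above 0 between 0.326 and 1.77 FPKM, highest in replicates 0 and 6 at 1.77 and 1.22. In HIF2, 4 of 9 libraries were above the highest WT library. The difference was 0.41 (exact permutation p = 0.0386, unadjusted), and it missed the threshold in the fit without a filter (limma adjusted p = 0.114). Leaving out 1 library moved the exact permutation p between 0.0135 and 0.0785, and without HIF2 replicate 0 the difference was 0.30 (exact permutation p = 0.0785). Macrophages carry this receptor, and the macrophage markers given above rose in 10 of 12. Of 9 tested enteroendocrine markers, 2 rose and 4 fell (315 to 569 FPKM in sum in WT, 229 to 863 in HIF2). Their part in the Gpbar1 values was not tested.

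**Figure D4:**
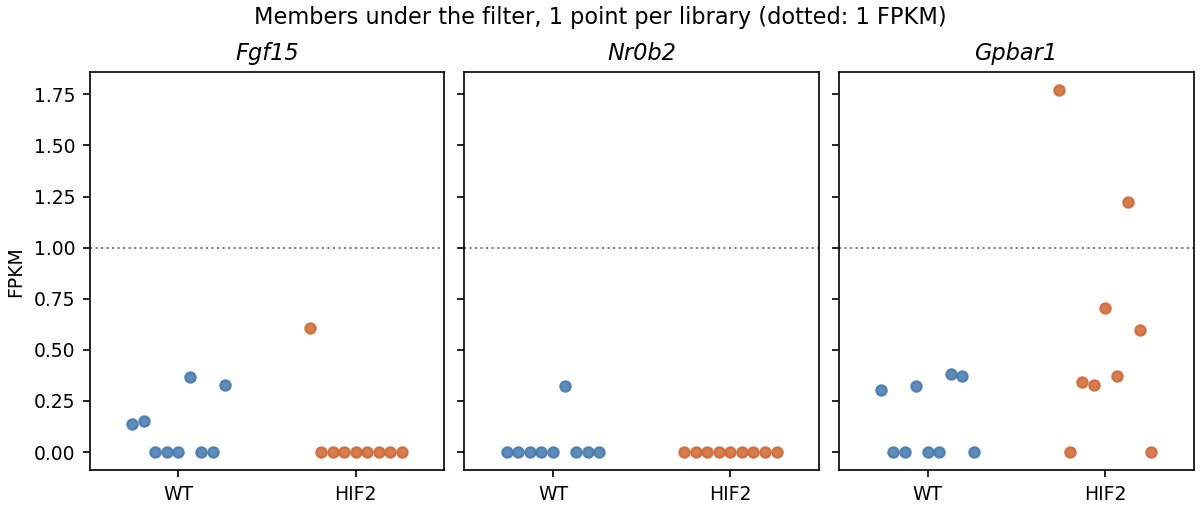
FPKM of Fgf15, Nr0b2 and Gpbar1 in each WT (blue) and HIF2 (orange) library, with a dotted line at 1 FPKM. Only Gpbar1 in HIF2 replicates 0 and 6, at 1.77 and 1.22 FPKM, exceeds the line.

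Among other genes of bile acid handling, calls in HIF2 were mostly to lower levels. Over 7 lists drawn from the pathway, 53 genes were tested, of which 18 fell and 3 rose, with a median difference of -0.22 against -0.02 over all tested genes. That is 39.6% called, beside the 22.1% of all tested genes. The lists were chosen with earlier results of these data known, so this share is no test of the pathway. Of 10 tested genes on the list of other carriers, 6 fell and 0 rose. This list is wider than bile acid carriers. Among those that fell, Abcg5 and Abcg8 export sterols, Atp8b1 moves phospholipid and Abcb1a is a drug efflux pump. Slc10a1, Slco2b1, Abcc4 and Abcg2 did not pass. Abcc2, an apical export pump, was 2.87 FPKM in WT and 0.684 in HIF2 on average and fell by 1.17 (SE 0.16, limma adjusted p = 9.77e-05). It passed the filter only through its WT level, as did Abcg8, at 1.63 FPKM in WT and 0.696 in HIF2. Abcc3, a basolateral export pump, was 93.2 and 57.1 FPKM and fell by 0.73 (limma adjusted p = 0.00202). Atp8b1, a phospholipid flippase mutated in familial cholestasis, fell by 0.43 (limma adjusted p = 0.000385). Abcb11 did not pass the filter.

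**Figure D5:**
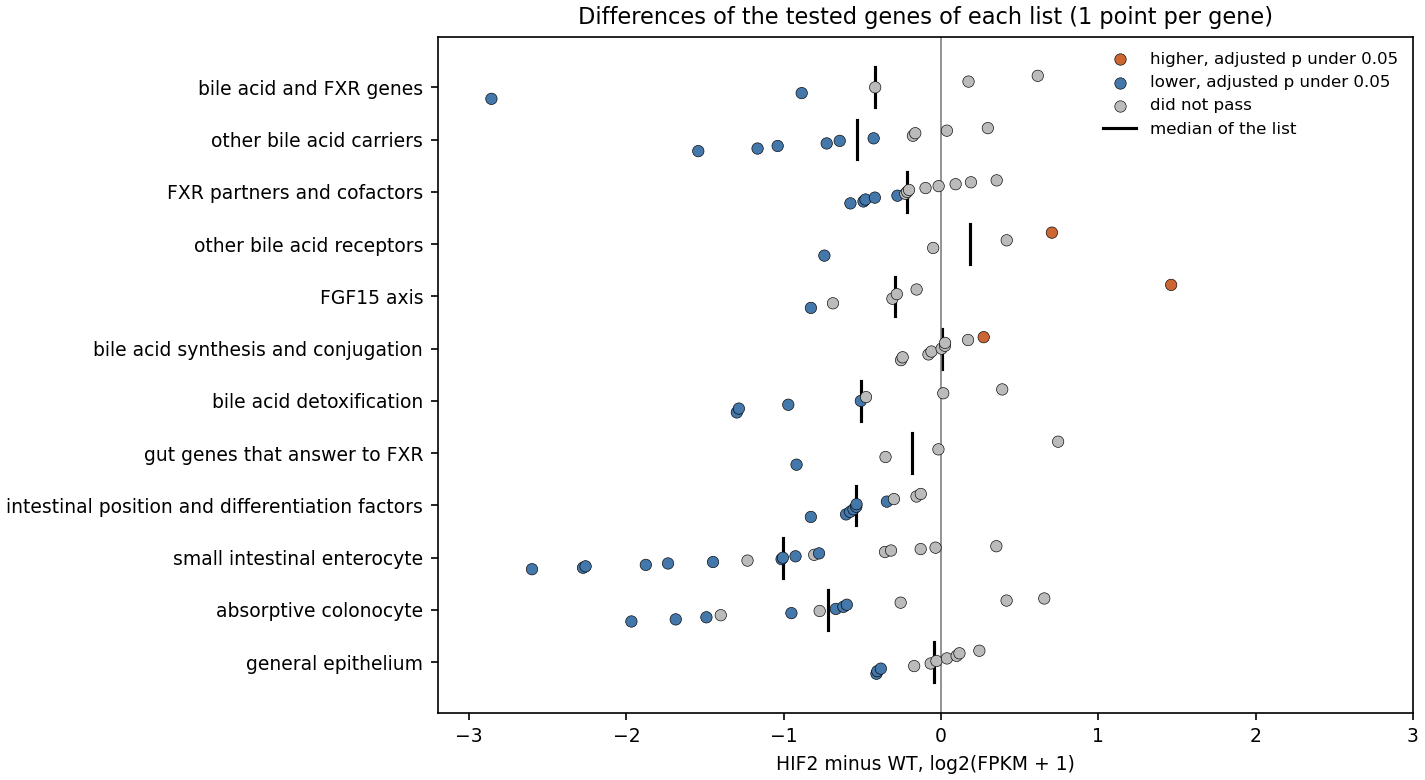
HIF2 minus WT on the log2(FPKM + 1) scale for the tested genes of each list, 1 point per gene, coloured by call (limma adjusted p under 0.05) with a black bar at the list's median. Of the 5 members, 2 fell and 0 rose, and of the 53 pathway genes 18 fell and 3 rose. The list labelled other bile acid carriers also holds sterol, drug and phospholipid transporters.

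FXR's partners and cofactors fell in 5 of 13 with 0 higher. Rxra, the heterodimer partner of FXR, ranged from 17.5 to 24.1 FPKM in WT and from 10.9 to 21.6 in HIF2 and fell by 0.48 (SE 0.10, limma adjusted p = 0.00271). Nr5a2, a nuclear receptor that acts with SHP, fell by 0.49 (limma adjusted p = 0.00413), which missed the threshold once smooth muscle level was a covariate (-0.35, limma adjusted p = 0.113), and the coactivator gene Ncoa3 fell by 0.42 (limma adjusted p = 0.00159). Of 4 other bile acid receptors, Vdr fell by 0.74 (limma adjusted p = 0.0084) and S1pr2 rose by 0.71 (limma adjusted p = 0.0012). Vdr averaged 63.3 FPKM in WT and 39.0 in HIF2. S1pr2 averaged 0.694 and 1.82 FPKM, so it passed the filter only through its HIF2 level. With smooth muscle level as a covariate neither passed, with Vdr at nearly the same difference (-0.72, limma adjusted p = 0.0688) and S1pr2 at a smaller one (0.47, limma adjusted p = 0.0506). Among 4 gut genes reported to answer to FXR, Car12, a carbonic anhydrase gene, fell by 0.92 (limma adjusted p = 0.000917), and Ang, Nos2 and Il18 did not pass.

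Of 6 tested genes of the FGF15 axis, 1 rose and 1 fell. Fgfr1 averaged 0.956 FPKM in WT and 4.71 in HIF2, so it too passed the filter only through its HIF2 level. It rose by 1.46 (limma adjusted p = 0.00467). It did not pass with smooth muscle level as a covariate (0.40, limma adjusted p = 0.305) or among libraries low in smooth muscle RNA (0.57, limma adjusted p = 0.179). Klb, the β-Klotho coreceptor gene, fell by 0.83 (limma adjusted p = 0.0438), a call lost in 13 of 18 fits that each leave out 1 library. Bile acid synthesis and conjugation genes showed 1 call in 9: Scp2, a sterol carrier gene, rose by 0.27 (limma adjusted p = 0.0491), likewise lost in 13 of 18 such fits. Cyp7a1, the rate-limiting enzyme of synthesis in liver, was listed at 0 in every library, as were Slco1a1, Fgf21 and Sult2a1. Bile acid detoxification genes fell in 4 of 7 with 0 higher. Among them, the cytochrome P450 gene Cyp3a25 fell by 1.30 (limma adjusted p = 0.000122). Cyp3a25 averaged 1.94 FPKM in WT and 0.149 in HIF2, so it passed the filter only through its WT level. The sulfotransferase gene Sult2b1 fell by 0.97 (limma adjusted p = 0.00217) and Cyp3a13 by 0.51 (limma adjusted p = 0.0131). Cyp3a13 missed the threshold with smooth muscle level as a covariate (-0.29, limma adjusted p = 0.282) and among libraries low in smooth muscle RNA (-0.27, limma adjusted p = 0.152). Near-identical family members make the split of fragments among Cyp3a genes uncertain.

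Factors of intestinal position and differentiation fell in 7 of 10 with 0 higher. Gata6 fell by 0.34 (limma adjusted p = 0.0021) and Cdx1 by 0.54 (limma adjusted p = 0.00288), though Cdx1 did not pass with smooth muscle level as a covariate (-0.38, limma adjusted p = 0.0897). Absorptive colonocyte markers fell in 7 of 12 with 0 higher (9628 to 15408 FPKM in sum in WT, 5120 to 12556 in HIF2). Their part in the members' differences was not tested.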

How the data were processed

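The deposited values are FPKM, 1 column per library. Per the submitters' processing notes the authors worked on build mm10 with TopHat2 2.0.9 (also listed as TopHat), Cufflinks, Cuffdiff 2.1.1, FastQC and Bowtie2 2.1.0.0, and the notes name no roles or order. Per the labels' protocols, library preparation used polyA RNA and a TruSeq v2 kit. FPKM sums ranged from 686539 to 937505 per library. Read depth is unknown, and the most common ratio of low values to those of WT replicate 0 lay between 1 and 1.39. Values were used without further scaling as log2(FPKM + 1), for 13976 genes with a mean of at least 1 FPKM.

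Tests were limma 3.58.1 in R 4.3.3 (trended prior), tested on simulated data, and exact 2-sided permutation over 48620 splits for single genes. Members and lists were chosen with earlier results of these data known. Genes named were the members, Epas1, up to 3 called genes per direction from each pathway or position list, and the 3 most like each member. A result for 1 gene that this rule names is not reported here. Slc11a2, Abcb1a, Abcg5, Abcg8, marker genes used to describe libraries, overlapping genes and list members given as not called were named outside this rule. Alternatives covered a pseudocount of 0.1, a filter at 5 FPKM or none, 2 scalings, the replicate number as a block, array weights, an exact rank test, 3 covariates and subsets of libraries. All 18 columns were used. Promoter windows are from RefSeq, on GRCm38.p6, the assembly that mm10 denotes, and 7 of 8 members had one.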

Additional observations from a re-analysis of the deposited data

Results flagged for a closer look

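On the FPKM scale, 4 of the 15 groups of 9 libraries held a library far from the others for its range. Fabp6 in HIF2 replicate 5 was 57.3 FPKM, with the next highest HIF2 library at 19.7. Slc51a in WT replicate 3 was 108 FPKM, with the next highest WT library at 70.1. On the log2(FPKM + 1) scale used for the tests, neither gap was past Dixon's 95% critical value as a share of the range, at 0.437 for Fabp6 and 0.476 for Slc51a. Fgf15 in HIF2 replicate 0 was 0.607 FPKM and Nr0b2 in WT replicate 5 was 0.324 FPKM, each with 0 in the other libraries of its group. A single value above 0 meets this criterion by construction, so the usual chance rate of about 1 in 20 groups does not apply to these counts.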

How the results depend on the processing

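Fabp6 and Slc51b stayed lower and past the threshold in all 32 alternatives, at -3.29 to -2.72 and -1.13 to -0.74. Nr1h4 stayed short of it, at 0.13 to 0.29. Members called higher numbered 1, Slc51a, instead of 0 with upper quartile scaling, in HIF2 replicates 6 to 8 against WT without replicate 3, without HIF2 replicates 2 and 4 (chosen after seeing the data) and in 2 of the fits that leave out 1 library, which gave 0 to 1. Over all genes, 1531 were higher and 1557 lower. Upper quartile scaling gave 2426 and 940, the smooth muscle covariate 934 and 1007, no filter 2407 higher, and a filter at 5 FPKM 640 higher. Leaving out 1 library gave 1333 to 1653 higher and 1343 to 1662 lower. Pathway genes called higher were 3, against 0 with the filter at 5 FPKM, 5 with the epithelium covariate and 5 in HIF2 replicates 6 to 8. With the replicate number as a block, 1355 genes were higher and 1345 lower, and Fabp6 and Slc51b kept their calls (limma adjusted p = 0.00346 and 0.0109). Same-numbered libraries correlated between -0.0333 and 0.112 in their deviations, and 0 of 9 WT libraries correlated best with the HIF2 library of their own number, so the numbers were not treated as pairs. The cause of these shifts was not tested. Depth is unknown, so no counting error was computed, and Fgf15, Nr0b2 and Gpbar1 lie at the limit of detection.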
